A study of Mus musculus with 9 samples.

Results

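Gene expression in spermatogonia of mice kept for 25 weeks on a diet without vitamin A was compared with that of mice kept for 18 weeks on the same diet. All 6 arrays of these groups, of 9 in the series, entered the comparison, with every probe set that is not an Affymetrix control, 45037 of 45101. The 25-week and 18-week groups held 3 arrays each and carried the vitamin A-deficient (VAD) diet alone. The remaining 3 arrays came from spermatogonia of mice on the normal diet and served as the level without deficiency; their time on diet is not given in the sources used here. All mice were adult Balb/C, and no genetic change is named for any group. Each preparation pooled the testes of 2 mice, germ cells were plated overnight and then separated by sedimentation in an albumin gradient, and the stated purity was above 90%. RNA of 100 ng was amplified in 2 cycles and hybridised to single-colour arrays. The labels do not say whether arrays of a group are separate preparations, so the p-values measure the spread between these arrays, which may be technical.

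Vitamin A is converted in the testis to retinoic acid, which binds nuclear receptors and drives undifferentiated A spermatogonia into differentiation. Under deficiency the A spermatogonia stop at that step, the later germ cells are lost from the tubules as they complete their development or die, and Sertoli cells and undifferentiated spermatogonia are what remains. Kit and Stra8 are the classical genes switched on when retinoic acid acts on spermatogonia, and Zbtb16, Gfra1 and Id4 mark cells that have not yet responded. In RNA of a mixed preparation, fewer cells of a type and less RNA per cell cannot be told apart.

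The arrays of the 25-week group were not alike. 25-week replicate 3 was dim, with a trimmed mean signal of 23.2, and so was control replicate 3, with 22.9. The other arrays lay between 55.2 and 185, the highest being 25-week replicates 1 and 2. Poly-A control RNAs, bacterial transcripts that are added to a sample before amplification, gave mean signals of 739 in 25-week replicate 1 and 924 in 25-week replicate 2, against 7.44 to 23.8 on every other array. The ratio of the 3′ to the 5′ probe set of Actb, which rises as cDNA becomes shorter, was 7.82 and 7.92 on those arrays, against 4.81, 5.55 and 5.74 at 18 weeks and 4.95 in 25-week replicate 3. The same ratio of Gapdh was 3.77 and 4.05 on the poly-A arrays, against 3.08, 3.94 and 4.11 at 18 weeks. It was highest on the dim arrays, at 5.61 in 25-week replicate 3 and 4.36 in control replicate 3. Actb and Gapdh thus ordered the arrays differently. No 18-week array carried the poly-A signal, and on the 25-week arrays that are not dim this handling and the time on the diet cannot be told apart. Across all kept probe sets the 7 arrays that are not dim correlated with each other at 0.935 to 0.981 and with the dim ones at 0.776 to 0.809. With so few arrays the precision of every value is limited.

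Of the labelled cell type's own markers, 17 of 30 undifferentiated and 20 of 21 differentiating spermatogonial genes were bright enough to be kept, Ret, Lin28a, Sall4, Neurog3 and Pax7 not among them. Markers of later germ cells were also present, 31 of 31 pachytene spermatocyte genes and 51 of 51 spermatid genes, as were 29 of 34 Sertoli cell genes. The values below are log2(signal + 3.26) after quantile normalization of the 9 arrays, so that a difference of 1 is a factor of 2 for bright probe sets and an understatement of the factor for dim ones. On the arrays that are not dim, mean levels were 4.68 to 5.10 for undifferentiated and 5.81 to 6.22 for differentiating spermatogonial genes. They were far higher for pachytene genes, 8.74 to 8.89, and spermatid genes, 8.15 to 8.93. The share of each cell type in the preparations was not tested.

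With all 3 arrays against 3, limma called 0 of 27022 kept probe sets at an adjusted p under 0.05 (0%). The smallest adjusted p was 0.917, and 1034 probe sets had an unadjusted p under 0.05. Without the dim arrays, 2 arrays at 25 weeks against 3 at 18 weeks, limma called 453 probe sets, 1.68% of those tested. With no trend in the variance the same fit called 0, its smallest adjusted p being 0.217 and 4030 probe sets having an unadjusted limma p under 0.05. Fitted to the arrays of these 2 groups alone it called 63. Of the 453 calls 170 were higher at 25 weeks (0.629% of those tested) and 283 were lower (1.05%), so that 37.5% of the calls were higher. That split depended on the scaling: centring arrays on their medians made it 90.7%, and the signals as deposited made it 99.8%, where the median of all kept probe sets was 1.05 higher at 25 weeks. Differences are therefore relative to the bulk of the probe sets. The calls also depended on which arrays entered the fit. Leaving out 25-week replicate 1 or 2 ended nearly all of them. Each of those fits leaves 1 array in that group, so dependence on 1 array and loss of power cannot be told apart. The count of calls was 45 without control replicate 1 and 43 without control replicate 2, although control arrays enter only the estimate of the spread. It was 467 without 18-week replicate 1, 56 without 18-week replicate 2 and 1027 without 18-week replicate 3.

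Taken as 1 probe set per gene, 76 of 13616 named genes rose (0.558%) and 170 fell (1.25%). The median difference was 0.80 among the former and -0.78 among the latter, and 20 and 39 genes reached a factor of 2. The dim 25-week replicate 3, which the test did not use, lay above all 18-week arrays in 33 of the 76 and below all of them in 109 of the 170. Among genes in general, wherever the other 25-week arrays lay on 1 side of the 18-week arrays, the dim one joined them in 40.4% of 2493 genes above and 55.8% of 2579 genes below. The share among the genes that rose is near this, and that among the genes that fell is somewhat higher, a gap that was not tested. All 3 25-week arrays lay above the 3 18-week arrays in 7.39% of all named genes and below them in 10.6%. The dim control replicate 3 lay beyond the 18-week arrays on the same side in 24 of the 76 and 89 of the 170. The share over all genes was not computed for that control, and the part of dimness in these counts was not tested. A further fit over all 9 arrays gave each of 3 array sets (dim, poly-A, other) its own term, which leaves the difference to rest on the dim 25-week and control arrays. In that fit 12 of the 30 largest changes described below turned their direction, and 0 of the 30 were called. Many genes are measured by more than 1 kept probe set. Among the 54 such genes that rose, a second probe set was also called higher in 5, and in 31 a second one pointed the other way; among the 70 that fell these counts were 9 and 33.

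**Figure D1:**
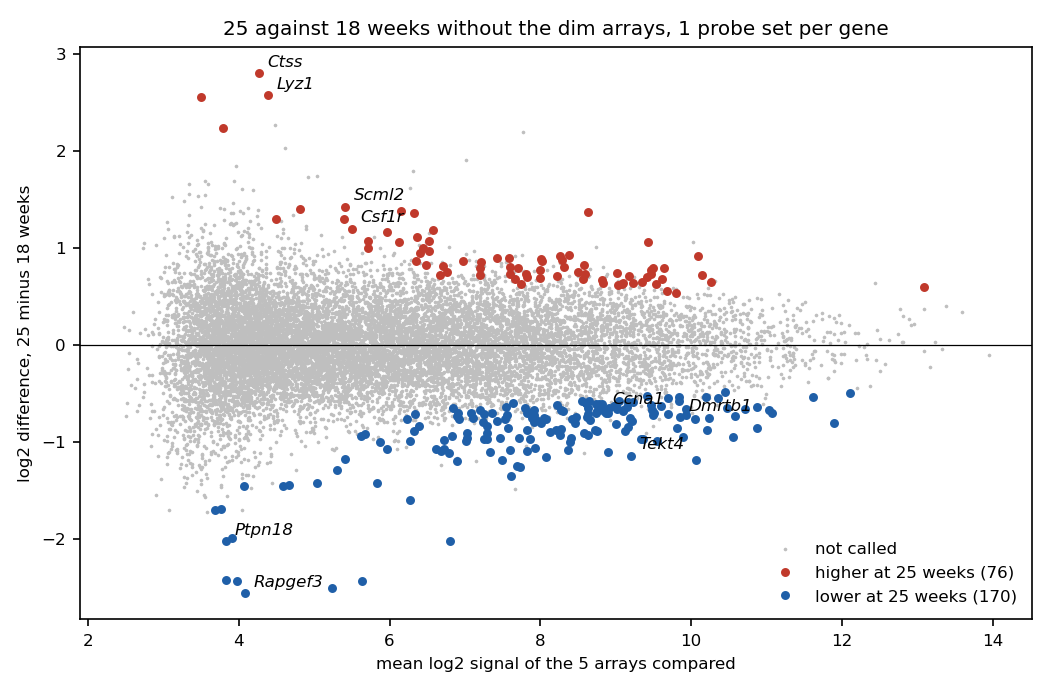
Log2 difference of 25 minus 18 weeks (vertical axis) against the mean log2 signal of the 5 arrays compared (horizontal axis), 1 point per named gene, without the dim arrays. The 76 genes that rose are red and the 170 that fell are blue; Ctss, Lyz1 and Rapgef3 lie furthest from 0.

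The 2 largest increases that all 3 25-week arrays shared were in genes of macrophages and other myeloid cells. Ctss, which encodes cathepsin S, a lysosomal protease of antigen-presenting cells, measured 3.05, 3.61 and 2.78 at 18 weeks and 6.12, 5.76 and 5.05 at 25 weeks. Every 25-week array, the dim one included, was above every 18-week array, while of the controls, at 4.72, 2.81 and 4.76, 2 lay between the groups and 1 among the 18-week arrays. The rise was 2.80 ± 0.49 (± is the SE, limma without the dim arrays, adjusted p = 0.0287). It missed the threshold without 18-week replicate 2 (limma, adjusted p = 0.0587). It also missed it without 25-week replicate 1 or 2, where 1 array is left in that group. In the test of 3 against 3 it was 2.50 ± 0.57, with an adjusted p of 0.917 and an unadjusted limma p of 0.00146.

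Lyz1 encodes lysozyme, an enzyme that digests bacterial walls. It measured 2.17, 4.41 and 3.51 at 18 weeks, 6.27, 5.60 and 6.64 at 25 weeks and 3.36, 3.18 and 3.31 in the controls. The 25-week arrays again stood above all others, the dim array highest. The rise was 2.57 ± 0.54 (limma, adjusted p = 0.0436), and both kept probe sets of the gene were called, though these are of a type prone to cross-hybridisation and Lyz2 is a near-identical copy. Lyz2, the lysozyme of macrophages, measured 4.43, 4.02 and 4.15 against 5.10, 5.0 and 5.73, with no overlap, and its difference of 0.85 ± 0.25 did not pass (limma, adjusted p = 0.111).

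Csf1r, the receptor through which colony-stimulating factor keeps macrophages alive, was tight within each group. It measured 4.95, 5.08 and 5.02 at 18 weeks and 6.20, 6.23 and 6.13 at 25 weeks. The rise was 1.20 ± 0.21 (limma, adjusted p = 0.0257). The dim control array, at 6.07, lay with the 25-week arrays, while the other controls were at 4.83 and 4.47, and of the 3 kept probe sets of the gene only this one was called, the lowest of the others differing by -0.35. With a term for each array set the difference turned to -0.31 (limma, adjusted p = 0.668).

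Of the 27 macrophage and leukocyte genes on the array 20 were kept, and these 3 rose while 0 fell. Of all named genes 0.558% rose and 1.25% fell. The median difference over the 20 was 0.21, against -0.01 over all named genes. On all 3 25-week arrays 5 of the 20 lay above the 18-week arrays, against 7.39% of all named genes. The fifth, beside the 4 genes above, was C1qb, a complement subunit made by macrophages, at 3.03, 3.83 and 3.83 against 5.21, 4.74 and 4.83 (limma, difference 1.41 ± 0.45, adjusted p = 0.132). Other genes of the list did not share this pattern. H2-Ab1, an antigen-presenting molecule, lay below on all 3 arrays with a difference of -0.53 ± 0.16, and Adgre1, a macrophage surface protein, differed by -0.49 ± 0.21 without the dim arrays; neither passed (limma, adjusted p = 0.117 and 0.255). Ptprc, Cd68, C1qa, C1qc, Tyrobp, Cd163 and Cd3e were too dim to be kept. The mean level of the list was 4.54 to 4.80 at 18 weeks, 5.07 to 5.14 at 25 weeks and 4.64 to 4.99 in the controls.

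**Figure D2:**
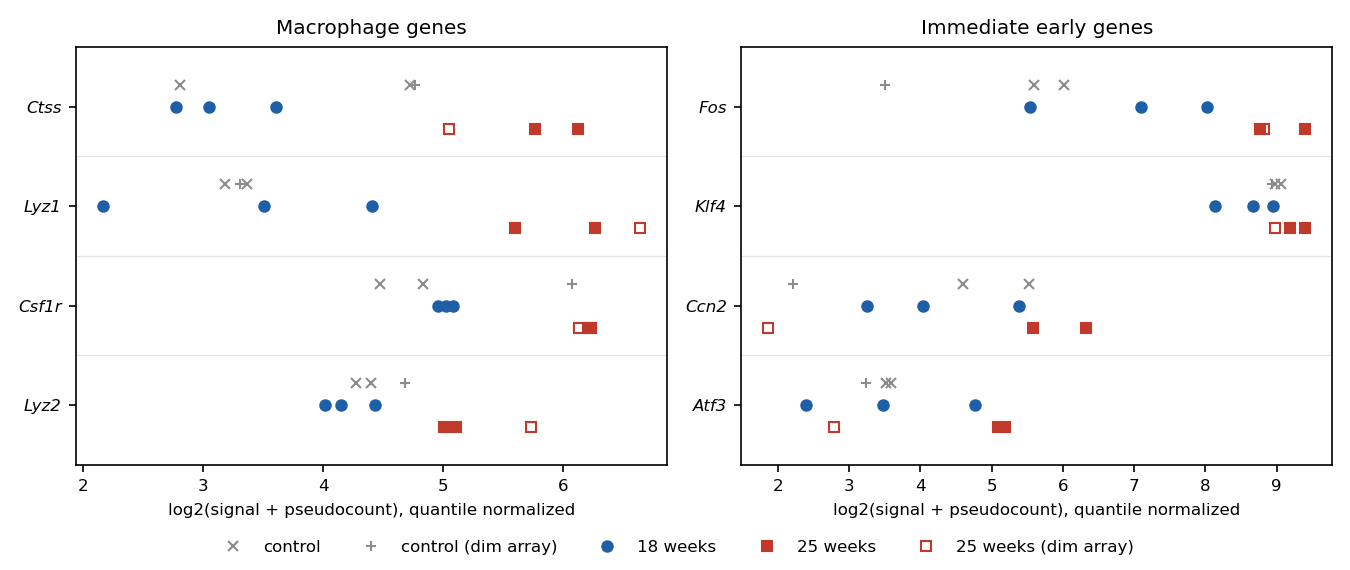
Log2(signal + pseudocount) per array (horizontal axis) for 4 macrophage genes and 4 immediate early genes; circles are 18-week, squares 25-week and crosses control arrays, and open squares and plus signs are the dim arrays. The 25-week arrays lie right of all 18-week arrays for Ctss, Lyz1, Csf1r, Lyz2, Fos and Klf4, and the dim 25-week array lies among or below them for Ccn2 and Atf3.

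Immediate early genes, which cells switch on within minutes of a stimulus, had a median difference second to that of the peritubular myoid markers among the lists, and 0 of the 30 kept members passed. The median was 0.57 without the dim arrays and 0.55 in 3 against 3, and it stayed positive, from 0.36 to 0.78, under every alternative run. By limma 11 of the 30 had an unadjusted p under 0.05 upward and 0 downward, against 9.04% and 9.89% of all named genes. On all 3 25-week arrays 10 of the 30 lay above the 18-week arrays, against 7.39% of all named genes. Fos, a subunit of the AP-1 transcription factor, measured 5.54, 8.03 and 7.10 at 18 weeks and 8.77, 9.40 and 8.82 at 25 weeks, with controls at 6.02, 5.59 and 3.50. All 25-week arrays were above all 18-week arrays, and 18-week replicate 1 was far below its group. The difference of 2.20 ± 0.53 did not pass (limma, adjusted p = 0.0634).

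Egr1, a transcription factor of the same response, measured 4.79, 6.90 and 6.47 against 7.07, 7.35 and 8.23. The difference was 1.15 ± 0.47 (limma, adjusted p = 0.236), and 18-week replicate 1 was again lowest. Klf4, a zinc finger factor of spermatids and Sertoli cells, differed by 0.71 ± 0.20 (limma, adjusted p = 0.097), and Srf, which drives transcription of many genes of the list, lay below on all 3 arrays with a difference of -0.41 ± 0.20 (limma, adjusted p = 0.307). Atf3 and Ccn2 were higher on the 25-week arrays that are not dim, by 1.60 ± 0.54 and 1.73 ± 0.52, but 25-week replicate 3 measured 2.78 and 1.87, within or below the 18-week range. The stress-inducible chaperone Hspa1b followed a like order, at 4.32, 6.93 and 5.55 against 7.30, 7.47 and 5.81 (limma, difference 1.79 ± 0.53, adjusted p = 0.112). The cells were plated overnight before separation, and the part of handling in these values was not tested.

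Of the spermatogonial genes 1 fell, Dmrtb1, also called Dmrt6, which encodes a transcription factor that acts in differentiating spermatogonia at the switch from mitosis to meiosis. It measured 10.19, 10.15 and 10.10 at 18 weeks and 9.46, 9.34 and 8.19 at 25 weeks, and the groups did not overlap. The fall was -0.75 ± 0.11 (limma, adjusted p = 0.0183). Control replicates 1 and 2, at 10.69 and 10.56, were above the 18-week arrays, and in the same fit the gene was lower than in controls by -0.48 at 18 weeks and -1.22 at 25 weeks (limma, adjusted p = 0.0366 and 0.000334). The dim control, at 9.31, lay near the 25-week arrays.

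Scml2 and Stk31 rose without the dim arrays, and the dim 25-week array went the other way. Scml2, a Polycomb-associated protein of the germ line, measured 4.72, 4.53 and 5.28 at 18 weeks and 6.08, 6.45 and 4.15 at 25 weeks. Its rise was 1.42 ± 0.27 (limma, adjusted p = 0.0334). Stk31, a germ cell kinase with a Tudor domain, measured 9.07, 8.80 and 9.03 against 9.60, 9.61 and 8.55, a rise of 0.64 ± 0.13 (limma, adjusted p = 0.0387). For both, 25-week replicate 3 lay below every 18-week array, so in 3 against 3 the differences were 0.72 ± 0.68 and 0.29 ± 0.29. With a term for each array set Stk31 turned to -0.39 (limma, adjusted p = 0.353). Without the dim arrays Scml2 differed from controls by -0.88 at 18 weeks and 0.54 at 25 weeks, and neither passed (limma, adjusted p = 0.0913 and 0.242). Stk31 was above controls by 0.996 and 1.64 (limma, adjusted p = 0.00329 and 0.000178).

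The genes that retinoic acid induces in spermatogonia did not pass between 25 and 18 weeks. Kit, the receptor for stem cell factor, measured 4.35, 4.51 and 4.09 at 18 weeks and 4.57, 4.54 and 3.94 at 25 weeks, with a difference of 0.24 ± 0.33 (limma, adjusted p = 0.774). Stra8, needed for entry into meiosis, measured 2.91, 4.31 and 2.66 against 4.06, 4.51 and 4.45. Its arrays overlapped, and the difference was 0.99 ± 0.56 (limma, adjusted p = 0.398). The errors are wide beside these differences. The controls of Kit measured 2.86, 3.65 and 2.51. Without the dim arrays Kit was above controls by 1.06 at 18 weeks and 1.30 at 25 weeks (limma, adjusted p = 0.0972 and 0.0328). It passed against controls at 25 weeks only. Stra8 differed from controls by -0.58 and 0.41, and neither passed (limma, adjusted p = 0.593 and 0.701).

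Markers of undifferentiated spermatogonia gave no call. None of the 17 kept members passed, 1 had an unadjusted limma p under 0.05 upward and 0 downward, and the median difference was 0.19. Of all named genes 9.04% were higher and 9.89% lower at that unadjusted cutoff. Id4, a marker of stem cells, measured 9.15, 9.06 and 8.87 at 18 weeks and 9.15, 9.36 and 9.29 at 25 weeks. The difference was 0.23 ± 0.14 (limma, adjusted p = 0.432), while the gene was higher than in controls by 0.91 at 18 weeks and 1.14 at 25 weeks (limma, adjusted p = 0.00761 and 0.00134). Zbtb16 differed by 0.42 ± 0.42 and Gfra1, the receptor for glial-derived neurotrophic factor, by 0.21 ± 0.24 without the dim arrays and -0.29 ± 0.44 with them. Bmi1, a Polycomb subunit, differed by 0.53 ± 0.21 (limma, adjusted p = 0.21). Over the 20 kept differentiating spermatogonial genes 2 rose and 1 fell, with a median of 0.37, or 0.15 in 3 against 3. Of all named genes 0.558% rose and 1.25% fell.

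**Figure D3:**
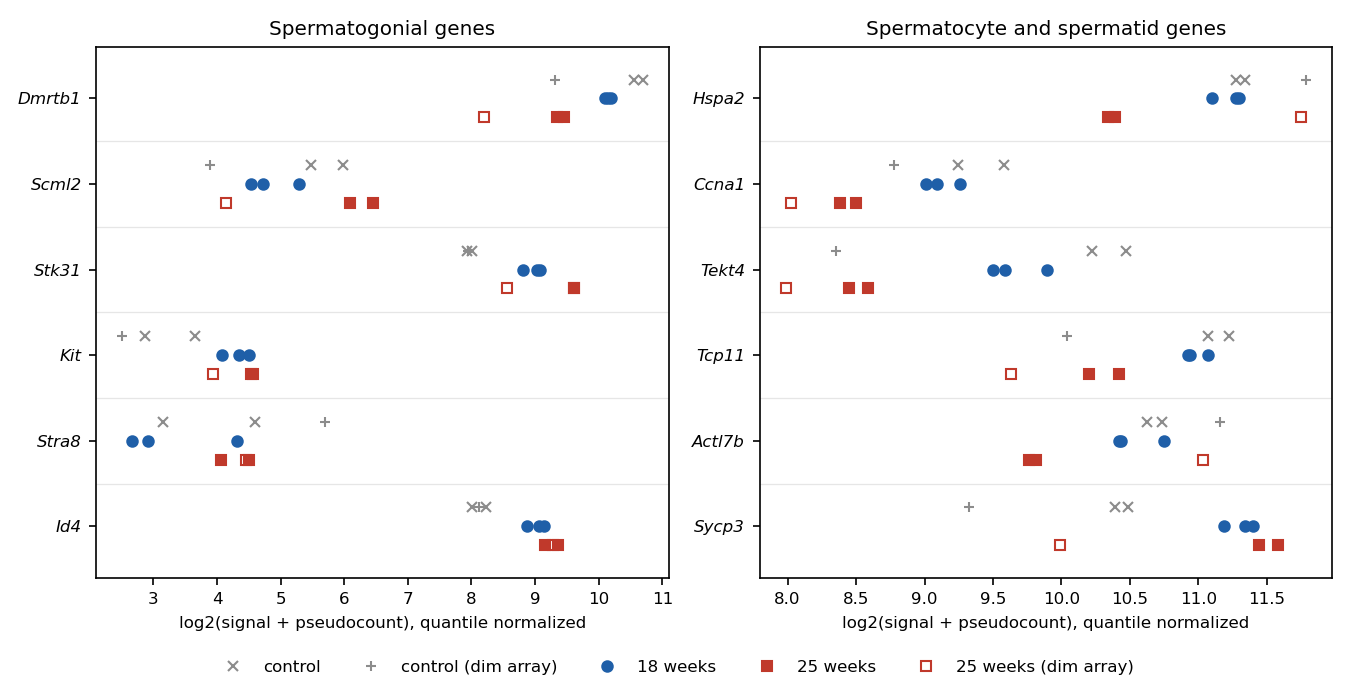
Log2(signal + pseudocount) per array (horizontal axis) for 6 spermatogonial and 6 spermatocyte or spermatid genes, symbols as in the plot of macrophage genes. All 25-week arrays lie left of all 18-week arrays for Dmrtb1, Ccna1, Tekt4 and Tcp11, while the dim 25-week array lies right of the 18-week arrays for Hspa2 and Actl7b.

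Of the listed genes of spermatocytes and spermatids, 5 fell and 0 rose, against 1.25% and 0.558% of all named genes. The stretches of DNA before the start sites of 3 of them are shown, MYBL1 being a known activator of spermatocyte genes. Sequences are from the RefSeq promoter table for GRCm38.p6, read 5′ to 3′ along the gene; the deposited files name no build. Capitals mark AACNGNC, a Myb element searched on both strands, and no match overlaps another.
Tekt4, chr17:25471490-25471589, plus strand, bases 100 to 1 before the start: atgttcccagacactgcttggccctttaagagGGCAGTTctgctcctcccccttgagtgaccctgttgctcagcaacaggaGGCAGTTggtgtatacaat
Ccna1, chr3:55055056-55055155, minus strand, bases 100 to 1 before the start: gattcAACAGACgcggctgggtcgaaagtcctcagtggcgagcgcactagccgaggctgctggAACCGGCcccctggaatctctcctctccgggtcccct
Hspa2, chr12:76404150-76404249, plus strand, bases 220 to 121 before the start: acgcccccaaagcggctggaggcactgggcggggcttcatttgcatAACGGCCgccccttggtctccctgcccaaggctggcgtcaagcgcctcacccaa
The Myb element is common: it occurs in 27.7% of 32851 promoter windows of 250 bases and in 4 of these 5 genes, Tcp11 at 1 of 3 starts, with no match in Actl7b. A match describes the letters and is no evidence of binding.

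Tekt4 encodes a tektin, a filament protein of the sperm tail. It measured 9.59, 9.90 and 9.50 at 18 weeks and 8.45, 8.59 and 7.99 at 25 weeks. All 25-week arrays lay below all 18-week arrays, and control replicates 1 and 2 stood above both, at 10.47 and 10.23. The fall was -1.14 ± 0.14 (limma, adjusted p = 0.0156). The dim control, at 8.35, lay with the 25-week arrays, and with a term for each array set the difference turned to 0.32 (limma, adjusted p = 0.524).

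Ccna1, the cyclin that spermatocytes need to enter the first meiotic division, measured 9.09, 9.26 and 9.01 against 8.50, 8.39 and 8.02. Its fall was -0.68 ± 0.14 (limma, adjusted p = 0.0431), again with no overlap. The dim control of Ccna1, at 8.78, also lay below all 18-week arrays, with the other controls at 9.58 and 9.24. Tcp11, a protein of sperm function, measured 10.94, 11.07 and 10.93 against 10.20, 10.42 and 9.63. The fall of Tcp11 was -0.67 ± 0.11 (limma, adjusted p = 0.0241). Here too the dim control, at 10.04, lay below all 18-week arrays, with the other controls at 11.22 and 11.07.

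Hspa2, the chaperone that pachytene spermatocytes need to complete meiosis, went the other way on the dim array. It measured 11.28, 11.29 and 11.10 at 18 weeks and 10.39, 10.34 and 11.75 at 25 weeks, with the dim control at 11.79. Its fall without the dim arrays was -0.86 ± 0.10 (limma, adjusted p = 0.0154). In 3 against 3 it was -0.40 ± 0.35. Actl7b, an actin-like protein of spermatids, had the same shape, at 10.43, 10.75 and 10.42 against 9.76, 9.81 and 11.04, and its fall was -0.75 ± 0.12 (limma, adjusted p = 0.0238). With a term for each array set the difference was 0.0467 for Hspa2 and 0.0210 for Actl7b (limma, adjusted p = 0.918 and 0.971).

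Over 31 pachytene genes 2 fell, the median difference was 0.03, and 6 had an unadjusted limma p under 0.05 downward and 3 upward. Over 51 spermatid genes 3 fell, the median was -0.06, and these counts were 9 and 8. Of all named genes 1.25% fell, and 9.89% were lower and 9.04% higher at that unadjusted cutoff. None of the 31 meiotic prophase genes or the 20 genes of the piRNA pathway passed, though 6 in each had an unadjusted limma p under 0.05 upward and 2 in each downward. Sycp3, a component of the synaptonemal complex, measured 11.40, 11.19 and 11.34 against 11.44, 11.58 and 9.99, a difference of 0.20 ± 0.11 without the dim arrays and -0.31 ± 0.44 with them. Piwil1, a piRNA-binding protein of spermatocytes, differed by 0.03 ± 0.11. Both genes were higher than in controls at 18 weeks, by 0.87 and 0.88 (limma, adjusted p = 0.00271 and 0.00355).

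Ctss, Lyz1 and Csf1r were among the 15 largest increases in called genes whose dim 25-week array also lay above the 18-week arrays. Arglu1, a co-factor of transcription and splicing, measured 9.0, 9.11 and 8.91 at 18 weeks and 10.13, 10.00 and 10.38 at 25 weeks. Its rise of 1.05 ± 0.14 (limma, adjusted p = 0.0159) came from 1 of 2 kept probe sets, the other differing by 0.00. Supt16, a subunit of the histone chaperone FACT, rose by 1.37 ± 0.27, Casp8ap2, which takes part in histone mRNA processing, by 1.07 ± 0.18 and Rpl27a, a ribosomal protein, by 1.36 ± 0.18 (limma, adjusted p = 0.0401, 0.0238 and 0.0159). The second kept probe set of Supt16 differed by -0.06.

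Rpl27a and Supt16 show how the dim arrays behaved. Rpl27a measured 5.72, 5.64 and 6.0 at 18 weeks, 7.14, 7.14 and 8.64 at 25 weeks and 6.07, 6.16 and 7.98 in the controls. The dim array was the highest of its group in both the 25-week and the control group. Supt16 had the same order, with dim values of 11.11 and 10.84 against at most 9.63 elsewhere. In 11 of the 15 genes the dim control lay above all 18-week arrays, while control replicates 1 and 2 lay below both other 25-week arrays in all 15.

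Ost4 is a subunit of the enzyme that attaches sugar chains in the endoplasmic reticulum and rose by 1.30 ± 0.27. Cep170, a protein of the centrosome, rose by 1.16 ± 0.25, and Cers3, the ceramide synthase that makes very long chain ceramides in testis and skin, by 0.91 ± 0.13 (limma, adjusted p = 0.0428, 0.0472 and 0.0182). The second kept probe sets of Ost4 and Cep170 differed by 0.27 and -0.14 and were not called. Cgas, the sensor of DNA in the cytosol, rose by 1.07 ± 0.21, with the dim 25-week array at 5.37, barely above the highest 18-week array at 5.36. Rp2, which acts on the cilium GTPase ARL3, rose by 1.0 ± 0.20 and the ubiquitin ligase Ankib1 by 0.89 ± 0.14. Ccdc90b, a protein of mitochondria, rose by 0.90 ± 0.15. Tssk5, a kinase of spermatids, rose by 2.55 ± 0.55 (limma, adjusted p = 0.0457). Its dim 25-week array, at 2.77, lay close to the 18-week arrays at 2.27 to 2.58, and its controls spread from 2.02 to 5.49.

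**Figure D4:**
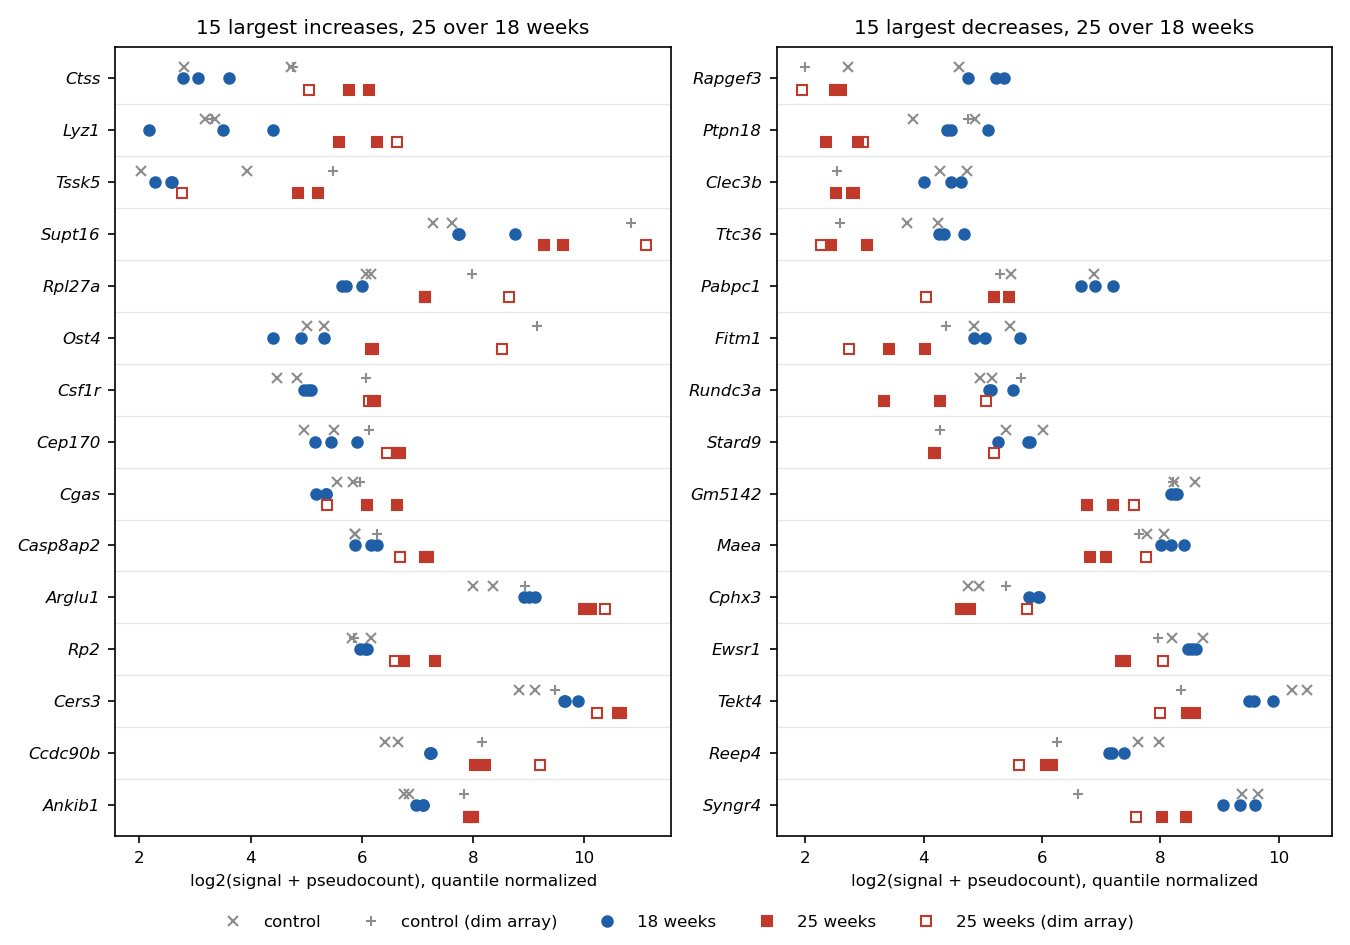
Log2(signal + pseudocount) per array (horizontal axis) for the 15 largest increases (left) and the 15 largest decreases (right), symbols as in the plot of macrophage genes. The 3 25-week arrays lie on 1 side of the 3 18-week arrays in all 30 genes by the rule that chose them; the dim control lies beyond the 18-week arrays on the same side in 11 and 12 of the 15.

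Among the 15 largest decreases, 5 genes had another kept probe set, and in all 5 one of these pointed the other way. Rapgef3 encodes EPAC1, which activates the GTPase Rap1 in response to cyclic AMP. It measured 5.22, 4.75 and 5.36 at 18 weeks and 2.61, 2.49 and 1.94 at 25 weeks, a fall of -2.56 ± 0.48 (limma, adjusted p = 0.0339). Only 1 of its 4 kept probe sets was called, the others reaching 0.10, and the controls spread from 1.99 to 4.59. Ptpn18, a tyrosine phosphatase, fell by 2.03 on the log2 scale (SE 0.40) and Clec3b, the plasminogen-binding protein tetranectin, by 1.70 (SE 0.34; limma, adjusted p = 0.0384 and 0.0398).

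Pabpc1, which binds the poly(A) tail of mRNA, measured 6.66, 6.89 and 7.20 against 5.19, 5.43 and 4.03, a fall of -1.60 ± 0.34 that its second probe set, at 0.11, did not share. Ewsr1, an RNA-binding protein, measured 8.60, 8.47 and 8.53 against 7.34, 7.41 and 8.05, a fall of -1.16 ± 0.16, and its second probe set differed by 0.21 (limma, adjusted p = 0.0439 and 0.017). These genes thus fell at 1 probe set and not at another.

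Maea, a subunit of the CTLH ubiquitin ligase, measured 8.40, 8.19 and 8.0 against 7.08, 6.81 and 7.77, a fall of -1.25 ± 0.17. Reep4, which keeps endoplasmic reticulum away from chromosomes in mitosis, fell from 7.38, 7.14 and 7.18 to 6.07, 6.16 and 5.60, by -1.12 ± 0.16. Syngr4, a synaptogyrin abundant in testis, fell by 1.10 on the log2 scale (SE 0.18; limma, adjusted p = 0.0159, 0.0183 and 0.0238 for the 3). Fitm1, of lipid droplet formation, the kinesin-like Stard9, the homeobox gene Cphx3, Ttc36, Rundc3a and Gm5142 fell by between 1.18 and 1.69, and the second probe sets of Stard9 and Rundc3a differed by 0.41 and 0.40. The dim control lay below all 18-week arrays in 12 of the 15 genes. Leaving out 25-week replicate 1 leaves 1 array in that group, so the loss of calls there cannot be told from loss of power. In 5 of 7 fits that left out 1 array each, 7 of the 30 genes were called, namely Rpl27a, Arglu1, Gm5142, Maea, Ewsr1, Tekt4 and Reep4.

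None of the markers of Sertoli cells passed, 0 of 29 kept, while 1 had an unadjusted limma p under 0.05 upward and 3 downward. These are 3.45% and 10.3% of the list, against 9.04% and 9.89% of all named genes. The median difference of the Sertoli markers was -0.25 without the dim arrays and 0.06 in 3 against 3, so no direction holds in both. Without the dim arrays 24 of the 29 differed downward and 5 upward, against 6954 and 6662 of 13616 named genes. The sign in 3 against 3 rested on the dim 25-week replicate 3. Its mean for the list was 5.72, against 5.26 and 5.24 on the other 25-week arrays. Their median lay above controls by 1.04 at 18 weeks and 1.0 at 25 weeks. Gja1, the gap junction protein connexin 43, measured 5.21, 6.70 and 6.04 against 5.94, 5.72 and 6.47, a difference of -0.15 ± 0.37, with controls at 2.94, 2.46 and 1.89. Amhr2, the receptor of anti-Müllerian hormone, measured 5.03, 6.52 and 5.04 at 18 weeks and 4.69, 4.48 and 2.57 at 25 weeks. Its arrays did not overlap, but the difference of -0.95 ± 0.42 did not pass (limma, adjusted p = 0.278). Inha, the inhibin alpha subunit, differed by -1.05 ± 0.31 and Cldn3, a tight junction protein, by -1.26 ± 0.38 (limma, adjusted p = 0.111 for both). The mean level of the list was 5.12 to 6.10 at 18 weeks, 5.24 to 5.72 at 25 weeks and 4.16 to 4.42 in the controls.

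Peritubular myoid genes, of the contractile cells around the tubule, had the highest median of any list, 0.77 over 10 kept members, and 0.69 in 3 against 3. By the brightest probe set of each gene 0 passed, while 4 had an unadjusted limma p under 0.05 upward and 0 downward. These are 40% and 0% of the list, against 9.04% and 9.89% of all named genes. Cald1, an actin-binding protein of smooth muscle, differed by 1.69 ± 0.48 and Myh11, smooth muscle myosin, by 1.23 ± 0.38 (limma, adjusted p = 0.101 and 0.118), and the dim 25-week array lay within the 18-week range for both. The second kept probe set of Cald1, with a difference of 1.77, was called. By its brightest probe set Cald1 differed from controls by -1.76 at 18 weeks and -0.08 at 25 weeks (limma, adjusted p = 0.0678 and 0.941). Myh11 differed from them by -0.17 and 1.07 (limma, adjusted p = 0.842 and 0.106). Ptch1, the receptor for hedgehog proteins, measured 3.97, 4.40 and 4.03 against 4.78, 5.43 and 4.64, with no overlap, and differed by 0.97 ± 0.33 (limma, adjusted p = 0.149). The mean level of the list was 4.75 to 5.07 at 18 weeks, 5.02 to 5.72 at 25 weeks and 4.55 to 4.71 in the controls.

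Lamb1, a laminin chain, rose by 1.29 ± 0.28 (limma, adjusted p = 0.0454) as 1 of 21 fibroblast and matrix genes, and the dim 25-week array, at 3.76, lay within the 18-week range. The median difference of that list was 0.17. An unadjusted limma p under 0.05 was reached downward by 0 of its genes, against 9.89% of all named genes. Upward it was reached by 6 genes, 28.6% of the list, against 9.04%. They included Dcn, the matrix proteoglycan decorin, at 3.03, 4.52 and 3.86 against 5.61, 6.04 and 4.37, a difference of 2.02 ± 0.47 (limma, adjusted p = 0.0553). Col1a2, a chain of type I collagen, differed by 0.93 ± 0.28 (limma, adjusted p = 0.112). None of the 11 Leydig cell or the 10 endothelial genes passed; by limma at an unadjusted p under 0.05, 0 and 1 were higher and 1 and 0 lower. The mean level of the Leydig list was 5.16, 6.61 and 6.08 at 18 weeks, lowest in replicate 1, and 5.64 to 6.14 at 25 weeks. The 5 red blood cell genes on the array were all too dim to be kept.

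The genes that handle or sense retinoids did not change at the threshold. None passed of 26 genes that take up, store or convert retinoids, 13 genes induced by retinoic acid or 15 receptors and cofactors, and the medians were 0.04, 0.09 and 0.18. At an unadjusted limma p under 0.05 these lists had 0, 0 and 4 higher and 2, 2 and 0 lower members. The 4 are 26.7% of their list, while 9.04% of all named genes were higher and 9.89% lower. The 4 higher ones of the last list included the co-activator Crebbp, at 6.70, 6.69 and 6.99 against 7.56, 7.28 and 7.32, a difference of 0.63 ± 0.16 (limma, adjusted p = 0.0794). Kat2b, also a co-activator with acetyltransferase activity, measured 5.61, 5.78 and 5.86 against 6.45, 6.26 and 8.10, where the dim control stood at 8.23. Without the dim arrays Crebbp and Kat2b differed from controls by -0.54 and -0.80 at 18 weeks (limma, adjusted p = 0.0952 and 0.0375). At 25 weeks they differed from controls by 0.09 and -0.19 (limma, adjusted p = 0.777 and 0.576). Aldh1a1, which makes retinoic acid and in the testis is abundant in Sertoli cells, measured 6.89, 9.06 and 8.69 against 8.98, 8.87 and 8.58, a difference of 0.71 ± 0.47 (limma, adjusted p = 0.484). The retinol-binding Rbp2 and the retinal reductase Dhrs4 differed by -0.95 ± 0.38 and -0.74 ± 0.22 (limma, adjusted p = 0.219 and 0.117). Cyp26a1, which degrades retinoic acid, spread from 2.03 to 6.14 at 25 weeks alone.

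Genes of energy supply and protein turnover had medians below that of all genes. Of 60 genes of the respiratory chain and ATP synthase 1 fell and 0 rose, 17 had an unadjusted limma p under 0.05 downward and 3 upward, and the median was -0.18. At that unadjusted cutoff 9.89% of all named genes were lower and 9.04% higher. All 3 25-week arrays lay below the 18-week arrays in 15 of the 60, and above them in 0, against 10.6% and 7.39% of all named genes. The mean level of the list was low on both dim arrays. It was 7.86 in 25-week replicate 3 against 8.10 and 8.18 on the other 25-week arrays. In the controls it was 7.75 on the dim array against 8.16 and 8.13. The part of dimness in the 15 was not tested. Ndufv1, a subunit of complex I, measured 9.97, 9.92 and 9.84 against 9.33, 9.38 and 9.65 and fell by -0.55 ± 0.12 (limma, adjusted p = 0.0491). Only this 1 of its 3 kept probe sets was called, and another differed by 0.10. Of 37 proteasome subunits 1 fell, Psmd4, a ubiquitin receptor, by -0.66 ± 0.14 (limma, adjusted p = 0.0431), with a median of -0.16 over the list and 9 members with an unadjusted limma p under 0.05 downward and 4 upward. Both medians turned positive, 0.13 and 0.14, after median centring, where the median of all kept probe sets was 0.18, and so were lower only relative to the rest.

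Of 44 DNA replication genes 1 rose and 2 fell, and by limma at an unadjusted p under 0.05 the list had 11.4% of its members higher and 13.6% lower, near the shares of all genes. Gins1 rose by 0.75 ± 0.16 and Gins2 fell by 0.89 on the log2 scale (SE 0.17), although both are subunits of the GINS complex of the replication fork, and Rrm1, a subunit of ribonucleotide reductase, fell by 0.53 (SE 0.12; limma, adjusted p = 0.0478, 0.0384 and 0.04998). The dim 25-week array, at 7.75, lay below every 18-week array for Gins1, whose difference in 3 against 3 was 0.35 ± 0.46. Of 39 mitosis genes Aurka, the spindle kinase Aurora A, fell by -0.65 ± 0.10 (limma, adjusted p = 0.0213), while its second probe set differed by 0.46. Of 41 ribosomal protein genes Rpl27a rose and Rps19 fell, the latter by -1.09 ± 0.21 (limma, adjusted p = 0.0339). For Rps19 the dim 25-week array, at 8.44, lay within the 18-week range of 7.94 to 8.61, and the difference in 3 against 3 was -0.67 ± 0.38. Gstm5 rose by 0.59 ± 0.10 (limma, adjusted p = 0.0288) as 1 of 36 antioxidant and glutathione genes, but its difference was -0.01 with arrays centred on their medians and -0.19 for the signals as deposited, taken relative to their median, so it has no settled direction.

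The remaining lists held few or no calls. Ewsr1 was 1 of 61 splicing genes to fall, Hspa2 1 of 30 heat shock chaperones to fall and Scml2 1 of 55 histone and DNA methylation genes to rise. None passed among 29 genes of the unfolded protein response, 26 of the Bcl2 family, 21 of cholesterol synthesis, 20 interferon-stimulated genes and 26 junction genes. At an unadjusted limma p under 0.05 those 5 lists had 0, 0, 3, 1 and 3 higher and 6, 2, 1, 2 and 1 lower members. The lower share was 20.7% in the unfolded protein response list. At that cutoff 13 of the 61 splicing genes were higher and 13 lower (21.3% each). Of all named genes 9.04% were higher and 9.89% lower at that cutoff, while 0.558% were called higher and 1.25% lower.

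**Figure D5:**
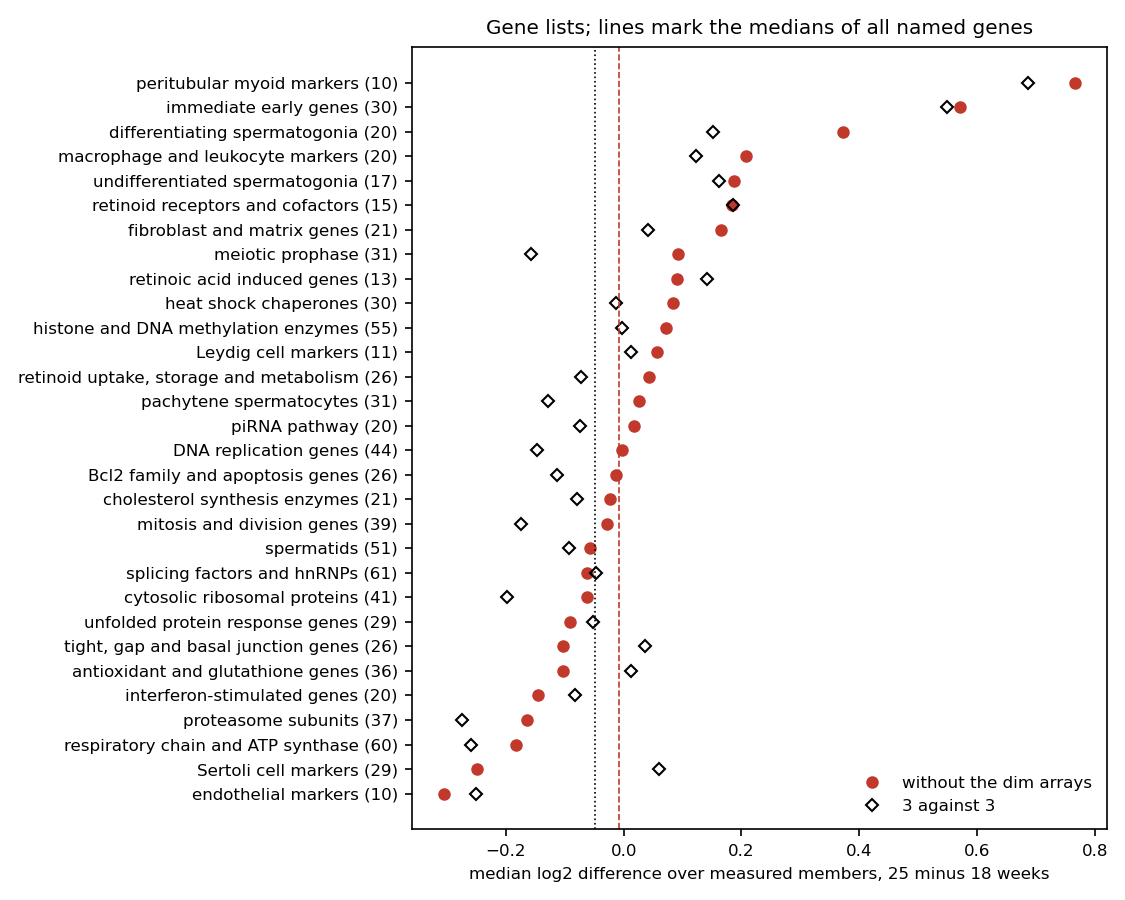
Median log2 difference of 25 minus 18 weeks (horizontal axis) for 30 gene lists with the number of kept members in brackets, without the dim arrays (filled) and with all arrays (open); the vertical lines are the medians of all named genes, -0.01 and -0.05. Peritubular myoid and immediate early genes lie furthest right, at 0.77 and 0.57, and the Sertoli list changes sign between the fits.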

How the data were processed

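Members and gene lists were chosen with earlier results of these data known. The deposited values are intensities on a linear scale, 1 MAS5 signal per probe set and array, per the submitters' processing notes; no source used here names its version, scaling target or genome build. No depth exists for arrays, and their number limits precision. The pseudocount of 3.26 was set at the 25th percentile of the signals. The medians of log2 signal differed by up to 1.56 between arrays, so arrays were quantile normalized; trimmed means leave out 2% at each end. The filter left out probe sets whose mean was below the 40th percentile and kept 27022. By the platform annotation 34945 probe sets have 1 symbol, 932 have several and 9160 have none; only the first were named, each gene by its brightest kept probe set, cross-hybridising types last.

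Differences were fitted with limma 3.58.1 in R 4.3.3 (lmFit, eBayes with a variance trend) over all 3 groups, once on all 9 arrays (6 residual degrees of freedom) and once without the dim ones (4), with Benjamini-Hochberg adjusted p under 0.05 over all kept probe sets. An array is dim when its trimmed mean is under 0.5 of the median array's. Named were the 15 highest and 15 lowest differences among called genes whose 3 25-week arrays lie on 1 side of the 18-week ones, up to 4 members per list of the 31 lists by smallest p, and 12 fixed genes; C1qb, H2-Ab1, Adgre1, Egr1, Srf, Crebbp, Kat2b, Cyp26a1, Dcn and Col1a2 were partly chosen after their values were seen. On simulated data over 27022 probe sets with 200 changed, the fit without the dim arrays found 15 of the 100 changed by 1 on the log2 scale and 60 of the 100 changed by 2, with 2 false calls, and 3 against 3 found 0 and 20, with 0 false calls. The simulated noise was independent between arrays, and apart from dimness no handling difference, such as that of the poly-A arrays, was put in. These counts therefore do not bear on false calls that handling could give. Alternatives were scaling, pseudocount, filter, variance trend, fold limit, groups in the fit, array weights, blocks and leaving out each array.

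Replicate numbers were checked as pairs: deviations of same-numbered 18-week and 25-week arrays from their group means correlated at 0, 0.034 and 0.03. The dim 25-week replicate 3 enters the mean of its group, so this check cannot decide whether the numbers pair the arrays.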

Additional observations from a re-analysis of the deposited data

Results flagged for a closer look

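The poly-A control signal stood out in data that no comparison used. Its mean was 739 in 25-week replicate 1 and 924 in 25-week replicate 2, against 7.44 to 21.4 on the 3 control arrays, 19.2 to 23.8 on the 18-week arrays and 12.0 in 25-week replicate 3. Both arrays carry all calls of 25 against 18 weeks without the dim arrays, and the part of this signal in those calls was not tested.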

How the results depend on the processing

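Without the dim arrays the comparison of 25 with 18 weeks gave 453 calls. It gave 18318 on the deposited scale, 1865 after median centring, 208 with no filter on low signals, 718 with a filter at the 60th percentile, 99 with a fold limit of 1 on the log2 scale, 63 with only the arrays of both groups and 1766 with array weights. Without a variance trend it gave 0 (4030 at an unadjusted p under 0.05 by limma, smallest adjusted p 0.217). Quantile normalization within the fit and pseudocounts of 1 and 16 gave 399 to 547. Leaving out 1 control or 18-week array gave 43 to 1027. Leaving out 25-week replicate 1 or 2 ended nearly all calls, but leaves 1 array in that group.

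The comparison of 3 against 3 gave 0 calls, also with each array left out, and the same under every alternative run except array weights, which gave 910, and a block of 3 array sets (dim, poly-A, other), which gave 1707. Its unadjusted counts ranged from 498 to 6232. That block rests the comparison on the dim pair. A block for the dim pair alone gave 0 (3119 unadjusted). A replicate block gave 639 calls without the dim arrays, 350 of them shared with the 453, and 0 in 3 against 3. The numbers are not known to pair the arrays. Deviations of same-numbered control and 25-week arrays correlated at 0.519 to 0.69, and those of control and 18-week arrays at -0.005 to 0.075. Replicate 3 is the dim array of both the control and the 25-week group and enters their means, so these values cannot decide on pairing.

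Single genes changed sign as follows; the cause was not tested. In 3 against 3, Gfra1 was -0.30, Sycp3 -0.31, Gja1 0.0595 and Gstm5 -0.17. Relative to the median on the deposited scale, Gstm5 was -0.19; after median centring, Gstm5 was -0.0053 and Gja1 0.10. With the dim block, Gfra1 was -0.0702 and Gja1 0.0872. Leaving out 1 array moved Gja1 between -0.54 and 0.21 and Piwil1 between -0.0781 and 0.13. With the block of 3 array sets, 12 of the 30 largest changes turned and 0 of the 30 were called. Tssk5 was -2.21, Supt16 -0.37, Ost4 -0.34, Csf1r -0.31, Cgas -0.19, Cers3 -0.0145 and Ankib1 -0.10. Clec3b was 0.39, Stard9 1.01, Ewsr1 0.0111, Tekt4 0.32 and Syngr4 1.16. Among the others, Stra8 was -0.67, Gfra1 -1.45, Sycp3 -0.21, Gja1 1.29, Stk31 -0.39, Hspa2 0.0467, Actl7b 0.0210, Gstm5 -0.20, Atf3 -0.44, Inha 0.66 and Bmi1 -0.13.

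The limits are few arrays, 2 of them dim, and handling that differs between the groups. Weak signals are compressed by the pseudocount.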
